A study of Sciaenops ocellatus with 24 samples.

Results

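Pooled whole larvae of red drum (Sciaenops ocellatus, a marine teleost) exposed to 1.25% slick oil were set against unexposed larvae of the same experiment, by small RNA sequencing at 48 hours post fertilization. Slick oil is naturally weathered oil of the Deepwater Horizon spill skimmed from the Gulf surface, and it was blended into seawater to give a high-energy water accommodated fraction (HEWAF). The value of 1.25% is the volume share of this preparation in the exposure water, and it was the lowest of 3 slick concentrations. The exposed group and the control group had 3 libraries each, 6 of the 24 libraries of the series. Other groups entered only where named, with 3 libraries each: slick oil at 2.50% and 5.00%, which shares the same controls, and source oil, a pipeline surrogate for the unweathered oil, at 0.135% with its own controls. All embryos were treated with formalin before exposure, in control and exposed groups alike, per the labels. The labels do not say whether the replicates are separate spawns or tanks. The p-values therefore reflect the spread among these pools alone, and that spread may be technical.

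MicroRNAs are short RNAs that bind messenger RNAs through a seed at their 5′ end and lower the amount or the translation of those messengers. Many are tied to a tissue, such as miR-9 and miR-124 to neurons, miR-206 and miR-133 to muscle, miR-203 to skin and miR-144 and miR-451 to red blood cells. In whole larvae a lower level of such a miRNA can come from fewer cells of that tissue or from less of the miRNA per cell, and these cannot be told apart.

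The members were all 202 miRNA names in the deposited count table of this comparison. The names carry the prefixes of many species (ssa for Atlantic salmon, dre for zebrafish, fru for fugu, ola for medaka and others). Reads of 1 red drum miRNA can thus be split between names or counted under several, and a name stands for the reads counted under it. In control library 1, for example, ccr-miR-129 and eca-miR-129b-5p had 44977 and 44976 counts. Total counts, shares of them and sums over names may therefore hold the same reads more than once. The tissue and family lists used below group names by miRNA number, so the 5p or 3p ending of a name was not used. Names with different endings can hold the same counts: fru-miR-24-5p and mdo-miR-24-3p had 4454 counts each in exposed library 2. Which strand of a miRNA a name holds was not checked. Of the 202 names, 159 had at least 10 counts in at least 3 libraries and were tested, and 43 were under that filter. Of the 159, 117 were counted in every library and 42 were at 0 in some library and at higher counts in others. Because such zeros widen the estimated spread, all 159 names and the 117 names were fitted separately. The common biological coefficient of variation was 139% over the 159 names and 23.1% over the 117 names.

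The total count was 7352096, 9306948 and 4440488 in the exposed libraries, against 9039751, 8316458 and 8994716 in the control libraries. The names counted in every library held 78.8% to 89.4% of the counts in the exposed and 71% to 90.8% in the control libraries. Levels below are CPM (counts scaled to a common library size) over the names of the fit, scaled by TMM. Fold changes are on the log2 scale, exposed over control, with a standard error (SE) and a 95% interval, and calls are edgeR quasi-likelihood tests with a Benjamini-Hochberg adjusted p under 0.05. Markers of the main larval tissues were present: the neural aca-miR-9-5p held 32.6%, 22.9% and 25.1% of all counts in exposed larvae, against 24.8%, 34% and 30% in control larvae. The muscle name ssa-miR-206-5p held 16%, 15.1% and 14.4% in exposed larvae, against 12.9%, 15.4% and 13.7% in control larvae.

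At 1.25% slick oil 1 of 159 names passed the test. That name, fru-miR-216a, was lower: it had 0 counts in all 3 exposed libraries, against 713, 771 and 1074 counts in the control libraries. The miR-216 and miR-217 miRNAs are neighbours in vertebrate genomes and are known from the acinar cells of the pancreas. Over the 159 names it was called with an adjusted p of 0.00517 (edgeR), which makes 0.629% of the names tested. It was at least 683-fold lower in exposed larvae, from the limit that 0 counts allow there (3 counts over the 3 libraries), against 97.1 CPM of all counts in control larvae. This bound covers counting error only. The name has counts in 3 libraries, all of them controls, so it passed the filter only through the group where it is high, and its p is given as a description. With no filter, over all 202 names, its adjusted p was 0.0169 (edgeR). Each of the 202 names had at least 1 count in control library 1, so leaving out the filter does not remove the selection through the controls. With all 12 slick libraries in the fit fru-miR-216a was no longer called (adjusted p = 0.997, edgeR), and without any 1 control library it fell under the filter and was not tested.

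The other names of the same gene neighbourhood did not follow fru-miR-216a. The miR-217 name tgu-miR-217-5p had 2568, 1749 and 2104 CPM in exposed larvae, against 1948, 1826 and 1696 CPM in control larvae. These libraries overlap, and the log2 fold change of 0.23 ± 0.17 (SE, n = 3 each) had an interval of -0.16 to 0.63. The only other miR-216 name, ipu-miR-216b, had 188975, 0 and 0 counts in exposed larvae, against 159182, 0 and 0 in control larvae, and fell under the filter. It was thus at high counts in library 1 of each group and at 0 in the other 4 libraries. With both miR-216 names summed, the counts were 188975, 0 and 0 in exposed and 159895, 771 and 1074 in control larvae. This sum gave a log2 fold change of 0.37 ± 4.13 (SE) and an adjusted p of 0.996 (edgeR). Because ipu-miR-216b in library 1 of each group dominates it, the sum cannot show whether miR-216 as a whole changed. At the higher concentrations fru-miR-216a had 718, 356 and 0 counts at 2.50% and 354, 1056 and 0 counts at 5.00%. In the source experiment it had 0, 0 and 0 counts at 0.135%, against 636, 592 and 0 in the source controls. A control library there was also at 0, so a zero of this name is not particular to exposed larvae. What part the assignment of reads to names has in these zeros was not tested.

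Among the 117 names counted in every library, 0 were called and 3 had an unadjusted p under 0.05 (edgeR), whereas DESeq2 called 1, or 0.855%. Positive log2 fold changes numbered 65 and negative ones 52, with a median of 0.02 and quartiles of -0.12 and 0.18. The absolute log2 fold change exceeded 0.5 for 5 names. The 95% interval reached beyond 1 log2 unit from 0 for 10 of the 117 names, so for all the others a change larger than a doubling or a halving lies outside the interval. The median distance from the estimate to the bound was 0.48 log2 units, or 1.4-fold. These intervals are not adjusted for the number of names, so a change of that size need not be called. The highest estimate, 0.96 for ssa-miR-734-5p, was itself not called in edgeR. Between an exposed and a control library, the root mean square difference over the 117 names was 0.28 to 0.82 log2 units (median 0.42 over 9 pairs). It was 0.33 to 0.6 between exposed libraries (median 0.47) and 0.28 to 0.73 between control libraries (median 0.71), so the ranges within and between the groups overlap. The upper ends rest on control library 2: both of its pairs with the other controls were at 0.71 and 0.73, and control libraries 1 and 3 differed by 0.28. In control library 2 aca-miR-26-5p had 1034 CPM, against 83754 and 88955 CPM in control libraries 1 and 3. This 1 name widens the distances of control library 2. The distances over the other names alone were not computed, so how far those names differ in control library 2 is not shown. Without control library 2, the pairs between the groups were at 0.28 to 0.46 (median 0.37 over 6 pairs).

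**Figure D1:**
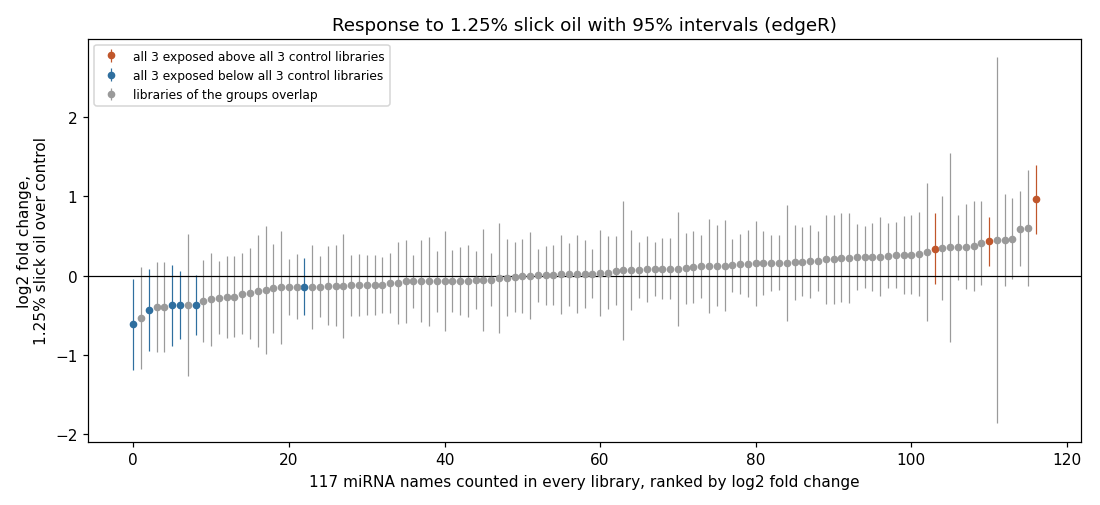
Log2 fold change of 1.25% slick oil over control for the 117 names counted in every library, ranked, with 95% intervals (edgeR); colour marks whether the 3 exposed and 3 control libraries overlap. The changes spread evenly about a median of 0.02, and ssa-miR-734-5p stands at the upper end at 0.96.

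The groups did not overlap for 9 of the 117 names, or 7.69%. With 3 libraries in each group, some names can be apart by the order of libraries alone, so this is given as a description. All 3 exposed libraries were above all 3 control libraries for ssa-miR-734-5p, ssa-miR-8159-5p and ssa-miR-194b-5p, and below them for ggo-miR-499a, hsa-miR-3074-5p, dre-miR-2187-5p, ssa-miR-1788-5p, ssa-miR-7552a-5p and ssa-miR-18a-5p. Over all 159 names this count was 14, or 8.81%, with 5 higher and 9 lower. The further names there were fru-miR-216a, chi-miR-182, fru-miR-30c, oar-miR-16b and aca-miR-16a-5p. The last 3 of these each have a library at 0, and chi-miR-182 overlaps on the scale of the 117 names. In CPM of all counts, without TMM scaling, the groups overlap for chi-miR-182, fru-miR-30c, oar-miR-16b and aca-miR-16a-5p.

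The highest estimate of the 117 names belonged to ssa-miR-734-5p, a miRNA named from bony fishes. It had 4028, 3514 and 5343 CPM in exposed larvae, against 2561, 1990 and 2085 CPM in control larvae. Every exposed library was above every control library, and exposed library 3 was the highest. The mean was 4295 ± 943 CPM in exposed and 2212 ± 306 CPM in control larvae (SD, n = 3 each), and the log2 fold change of 0.96 ± 0.19 (SE) had an interval of 0.52 to 1.4. The adjusted p was 0.0952 in edgeR. DESeq2 on the same counts gave 0.000842, so its call depended on the test.

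The second salmon name, ssa-miR-8159-5p, was at 2287, 2203 and 2476 CPM in exposed larvae, against 1802, 1712 and 1655 CPM in control larvae. Both groups were tight and apart. Its log2 fold change was 0.43 ± 0.14 (SE, n = 3 each; interval 0.12 to 0.74; adjusted p = 0.726, edgeR). Over all 159 names DESeq2 called it (adjusted p = 1.15e-05), together with ssa-miR-734-5p (0.000187) and fru-miR-216a (6.5e-21), or 1.89% of names. Over the 117 names its DESeq2 adjusted p was 0.466 with a log2 fold change of 0.40, so this call held in the wider set only.

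These 3 names are also the calls in the authors' deposited table, 3 of 198 names or 1.52%. That table was also made with DESeq2 from the same libraries, so the match is not independent evidence. The authors' deposited table gives log2 fold changes of 0.86 for ssa-miR-734-5p, 0.40 for ssa-miR-8159-5p and -6.70 for fru-miR-216a. In the authors' deposited table the next smallest adjusted p is 0.998, and 8 names have an unadjusted p under 0.05.

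**Figure D2:**
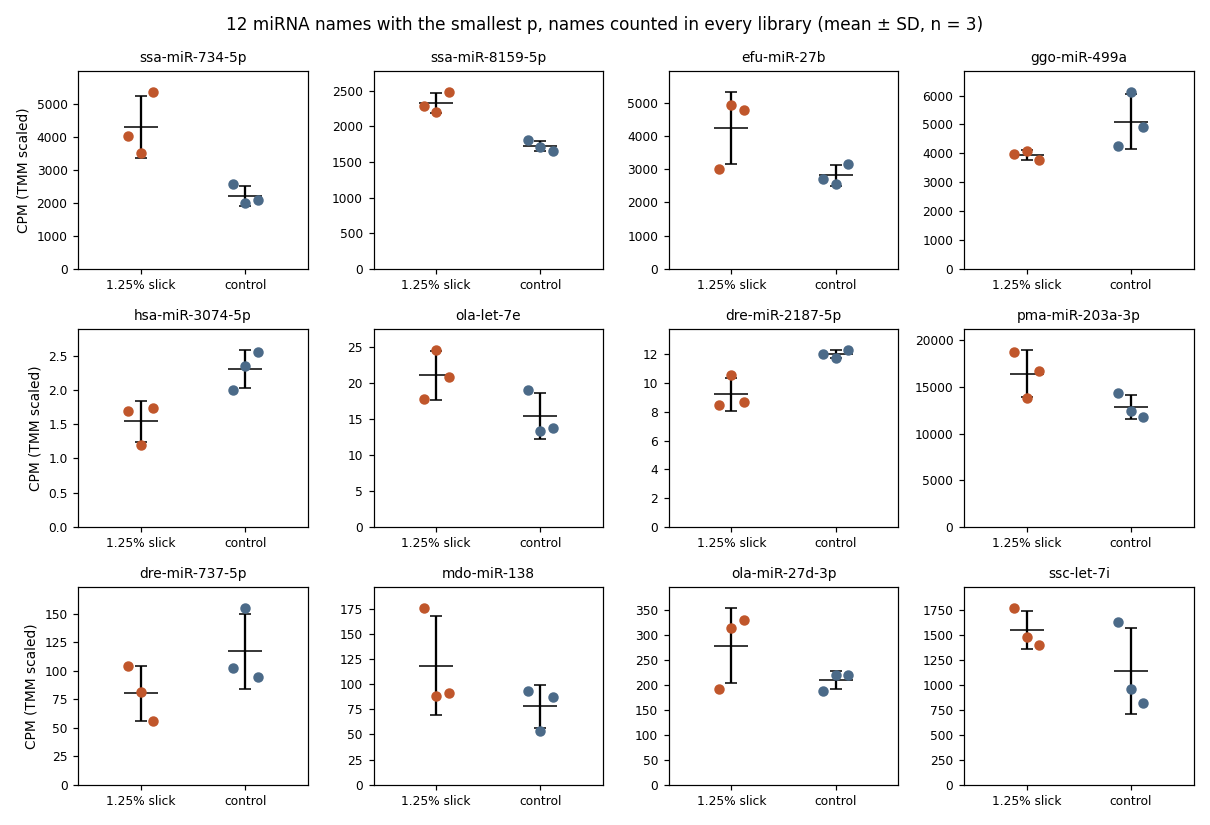
CPM (TMM scaled, linear axes from 0) of the 12 names with the smallest p among the 117, by library, with the exposed group left of the control group; points are libraries and bars are the mean ± SD (n = 3). The 3 exposed libraries of ssa-miR-734-5p lie between 3514 and 5343 CPM, above the control libraries at 1990 to 2561 CPM, whereas the groups overlap in 7 of the other panels.

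The 8 names of teleost miRNAs did not move together. None was called, 3 were positive and 5 negative, and their median was -0.07 (0.02 without exposed library 3) beside 0.02 for all 117 names. The names ccr-miR-722 and ssa-miR-722-5p, both negative, had nearly the same counts as each other. Besides ssa-miR-734-5p and ssa-miR-8159-5p above, dre-miR-2187-5p had 8.47, 10.5 and 8.69 CPM in exposed larvae, against 12, 11.7 and 12.3 CPM in control larvae. The groups did not overlap at this low level, and the log2 fold change was -0.37 ± 0.19 (SE; interval -0.80 to 0.05). dre-miR-737-5p had 104, 81.6 and 55.6 CPM in exposed larvae, against 102, 155 and 94.1 CPM in control larvae, and its libraries overlap.

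The miRNAs of the miR-23/24/27 cluster are transcribed together, and miR-27b is known from zebrafish for its role in vessel sprouting. Of 10 listed names of the cluster 8 were tested, all of them counted in every library. Of these 8 names 7 were positive, with a median of 0.15, and 0 were called. However, ssa-miR-24a-4-5p repeated the counts of fru-miR-24-5p in every library. The negative name, mdo-miR-24-3p, departed from those counts in exposed library 1 alone (1685 against 3108). The cluster thus holds fewer than 8 separate measurements. efu-miR-27b had 3002, 4933 and 4787 CPM in exposed larvae, against 2712, 2569 and 3161 CPM in control larvae. Exposed libraries 2 and 3 were above all controls and exposed library 1 was among them. Its log2 fold change was 0.59 ± 0.21 (SE; interval 0.12 to 1.06; adjusted p = 0.751, edgeR), and without exposed library 1 it was 0.78 with an adjusted p of 0.047. ola-miR-27d-3p showed the same split, with 193, 314 and 329 CPM in exposed larvae, against 189, 220 and 221 CPM in control larvae. Without exposed library 3 the cluster had 4 of 8 positive names and a median of 0.03.

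The let-7 family accumulates as animal cells differentiate. Of its 10 listed names 8 were tested, 5 were counted in every library, and 0 were called. The 5 names counted in every library were positive, between 0.23 and 0.46, with a median of 0.26. Over all 8 names tested 5 were positive and 3 negative, down to -0.95. With the 10 names summed, the counts were 98098, 199420 and 151280 in exposed larvae, against 262702, 114840 and 226582 in control larvae. For the sum, the estimate was 0.01 ± 0.48 log2 units (SE) and the adjusted p 0.996 (edgeR). In control library 1 fru-let-7d and ssa-let-7d-5p had 48916 and 48923 counts, and aca-let-7b-5p and oar-let-7b had 18220 each. All of these names were at 0 in exposed library 1. The sum thus holds different names in different libraries and does not compare like with like. ola-let-7e had 17.8, 24.5 and 20.9 CPM in exposed larvae, against 19, 13.3 and 13.8 CPM in control larvae. ssc-let-7i had 1764, 1481 and 1398 CPM in exposed larvae, against 1625, 962 and 821 CPM in control larvae. In both names control library 1 stood among the exposed libraries and the other controls below them. The estimates were 0.46 ± 0.22 (SE; interval -0.05 to 0.97) for ola-let-7e and 0.45 ± 0.25 (SE; interval -0.13 to 1.02) for ssc-let-7i. The names tca-let-7-5p and mse-let-7a had nearly the same counts as each other, so the 5 names are fewer than 5 separate measurements. These 5 names stayed positive under each other scaling and without each library in turn, with medians between 0.18 and 0.43.

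Of 6 listed muscle names 5 were tested and 3 were counted in every library. Of these 3 muscle names 1 was positive, 2 were negative and 0 were called, with a median of -0.07 (0.15 without exposed library 3 and 0.07 without control library 1). Over all 5 tested 2 were positive and 3 negative, and 0 were called. aca-miR-1a-1-5p had 132583, 0 and 0 counts in exposed larvae, against 108155, 0 and 0 in control larvae, and fell under the filter. ggo-miR-499a, whose gene lies within a myosin heavy chain gene of slow and heart muscle, had 3983, 4076 and 3758 CPM in exposed larvae, against 4237, 6112 and 4929 CPM in control larvae. The highest exposed library was just under the lowest control library, and the log2 fold change was -0.37 ± 0.17 (SE; interval -0.75 to 0.01; adjusted p = 0.913, edgeR). ssa-miR-206-5p, a name of the skeletal muscle miR-206, had a log2 fold change of 0.11 ± 0.20 (SE; interval -0.34 to 0.56), and it was -0.014 without control library 3.

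Of 25 listed neural names 17 were tested and 11 were counted in every library. These 11 neural names had a median of -0.03 (0.02 without control library 2), with 5 positive, 6 negative and 0 called. Over all 17 tested 8 were positive and 9 negative, down to -2.80, and 0 were called. The most abundant miRNA of the larvae, aca-miR-9-5p, gave -0.13 ± 0.22 (SE; interval -0.62 to 0.37). The neural mdo-miR-128a-5p, another abundant name, had 34050, 54972 and 75754 CPM in exposed larvae, against 43562, 71345 and 53408 CPM in control larvae. Its estimate was -0.03 ± 0.30 (SE; interval -0.72 to 0.66), with 0.22 without exposed library 1 and 0.16 without control library 2. A second name with nearly equal counts where both were counted, ola-miR-128, had 0, 412240 and 0 counts in exposed larvae, against 261002, 546953 and 0 in control larvae. mdo-miR-138, a neuronal miRNA, had 175, 88.6 and 91.2 CPM in exposed larvae, against 93, 53.7 and 87.6 CPM in control larvae. Exposed library 1 alone was clear of the controls. ola-miR-124-5p, a name of the neuronal miR-124, gave -0.27 ± 0.22 (SE; interval -0.77 to 0.24). Of 6 listed names tied to eye and sensory organs 4 were counted in every library. Of these 4 names 3 were positive, 1 was negative and 0 were called. chi-miR-182, known from hair cells and photoreceptors, gave 0.23 ± 0.18 (SE; interval -0.19 to 0.65). The negative name, chi-miR-96, gave -0.16 ± 0.25 (SE; interval -0.72 to 0.39). rno-miR-183-5p, of the same gene cluster as miR-182, had 0, 441841 and 0 counts in exposed larvae, against 358267, 0 and 0 in control larvae, and fell under the filter.

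Of 6 listed epithelial names 5 were counted in every library. Among these 5 names 3 were positive and 2 negative, with a median of 0.16 and 0 called. The positive names were ssa-miR-200a-2-5p and the miR-203 names pma-miR-203a-3p and rno-miR-203b-5p. Of the negative names, sha-miR-200a gave -0.12 ± 0.17 (SE; interval -0.51 to 0.26) and cgr-miR-205 gave -0.12 ± 0.16 (SE; interval -0.47 to 0.24). pma-miR-203a-3p, which in skin represses the stem cell factor p63, had 18765, 13780 and 16759 CPM in exposed larvae, against 14312, 12393 and 11816 CPM in control larvae. Exposed library 2 was below control library 1, and the log2 fold change was 0.36 ± 0.18 (SE; interval -0.06 to 0.77). rno-miR-203b-5p, at 3.22, 2.8 and 2.24 CPM in exposed larvae, against 2.5, 1.96 and 2.09 CPM in control larvae, had an overlap and an estimate of 0.36 ± 0.24 (SE; interval -0.17 to 0.90). A further miR-203 name, dre-miR-203b-5p, had 184167, 180383 and 92842 counts in exposed larvae, against 146319, 0 and 0 in control larvae. It was not called over all names. Without control library 1, however, it was called higher (adjusted p = 0.00172, edgeR), when both remaining control libraries were at 0. It then passed the filter only through the exposed libraries, so this p is given as a description.

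Blood and vessel names gave 4 positive and 8 negative changes of 12, a median of -0.04 (0.0072 without control library 2) and 0 calls. ola-miR-142 and tgu-miR-142-5p, names of a miRNA of white and other blood cells, had the same counts. They stood at 49.4, 38.1 and 27.1 CPM in exposed larvae, against 45.4, 58.2 and 48.1 CPM in control larvae, and exposed library 1 was among the controls. The erythroid ssa-miR-144-3p had 355, 267 and 238 CPM in exposed larvae, against 333, 388 and 324 CPM in control larvae. Its libraries overlap, and the log2 fold change was -0.28 ± 0.20 (SE; interval -0.74 to 0.18). The second erythroid name, chi-miR-451-5p, gave 0.08 ± 0.18 (SE; interval -0.33 to 0.49).

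Of the 117 names, 0 in the remaining lists were called. The liver and gut name ssa-miR-194b-5p had 83.1, 84.4 and 84.5 CPM in exposed larvae, against 76.8, 54.3 and 68.4 CPM in control larvae. The exposed libraries were almost equal and above the controls, and its estimate was 0.34 ± 0.20 (SE; interval -0.11 to 0.78). Its relative ola-miR-194-5p gave -0.30 ± 0.26 (SE; interval -0.89 to 0.28), so the miR-194 names did not share a sign. ssa-miR-18a-5p, of the growth-promoting miR-17-92 family, did not overlap between groups, yet its estimate was -0.14 ± 0.16 (SE; interval -0.50 to 0.22). The 10 names of that family had 5 positive and 5 negative changes with a median of 0.01, which lay between -0.14 and 0.08 under other scalings or with a library left out. ola-miR-430a, whose family clears maternal messengers in early zebrafish embryos, gave -0.14 ± 0.16 (SE; interval -0.50 to 0.21). ola-miR-21, a miRNA of injury and stress, gave 0.18 ± 0.17 (SE; interval -0.20 to 0.56). The hypoxia miRNA name ola-miR-210-3p had 105, 0 and 0 counts in exposed larvae, against 169, 0 and 165 in control larvae, which gives no usable fold.

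The 5 names of the Hox clusters had a median of 0.13, and hhi-miR-196, which lies within those clusters, gave 0.13 ± 0.15 (SE; interval -0.20 to 0.46). The 2 names of the miR-99/100 and miR-125 group had a median of 0.21, and of -0.07 without exposed library 3. The 3 names of skeletal and connective tissue had a median of 0.03, which lay between -0.13 and 0.03 under other scalings or with a library left out. Among them aca-miR-199a-5p gave -0.07 ± 0.15 (SE; interval -0.41 to 0.26). The 4 names of the miR-181 family had a median of -0.06, and of 0.03 without control library 1. The smallest p of that family belonged to hsa-miR-181b-2-3p, at -0.23 ± 0.23 (SE; interval -0.74 to 0.29). The pancreas list had a median of 0.19 over 2 names, and ipu-miR-107b, the lone name of its list, stood at 0.37. The miR-26, miR-30 and miR-101 list had a median of 0.12 over 3 names, of -0.12 without exposed library 3 and of -0.07 without control library 2. Among them ola-miR-101b-3p gave -0.22 ± 0.25 (SE; interval -0.80 to 0.35). Its most abundant name, aca-miR-26-5p, had 73040, 86485 and 76981 CPM in exposed larvae, against 83754, 1034 and 88955 CPM in control larvae, where library 2 stood far below all others. Its log2 fold change of 0.44 ± 1.02 (SE) had an interval of -1.86 to 2.75, and it was -0.15 without control library 2.

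**Figure D3:**
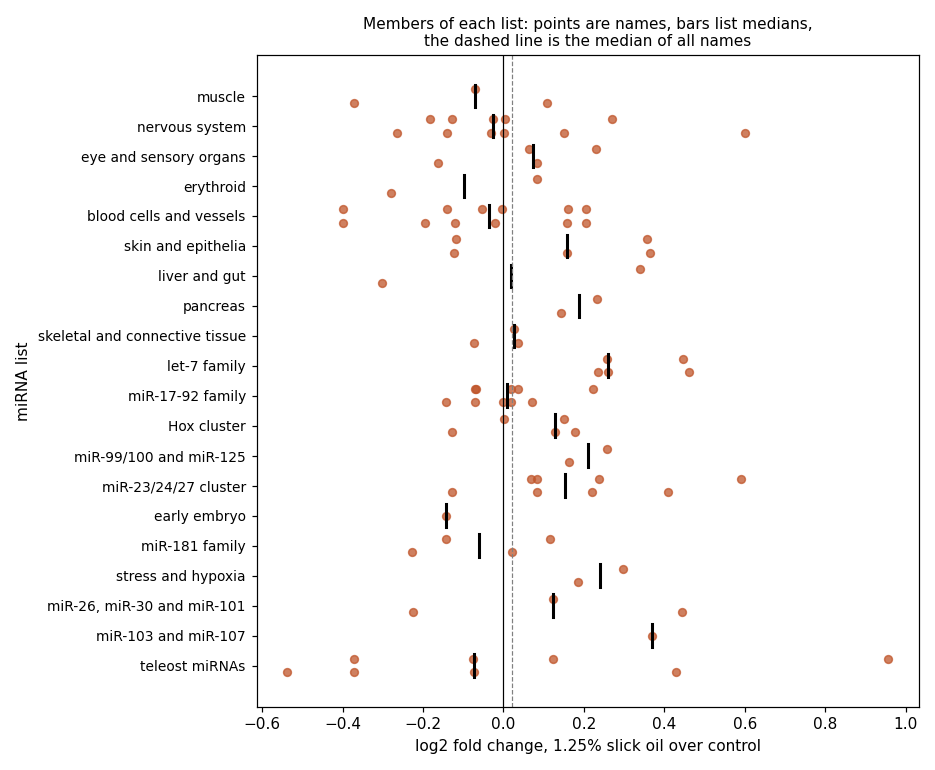
Log2 fold change of 1.25% slick oil over control for the names of each miRNA list counted in every library; points are names, bars list medians, and the dashed line is the median of all 117 names at 0.02. The 5 let-7 names counted in every library lie right of 0, between 0.23 and 0.46, while the neural, blood and teleost names lie on both sides.

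The 42 names at 0 in some library held 95 such zeros, 56 in exposed and 39 in control libraries. The control zeros fell on control library 2 (26) and control library 3 (13). Control library 1 held none, because each of the 202 names had at least 1 count there, so the numbers of zeros in the groups are not comparable. For 16 of these names another name of the same miRNA had nearly the same counts (within 5%) wherever both were counted. In 27 of the 95 zeros that partner was counted in the same library. For example, sha-miR-181a-5p had 0, 299344 and 140714 counts in exposed larvae, against 252647, 260387 and 388019 in control larvae. Its partner ola-miR-181a-5p was counted in every library, and gave -0.14 ± 0.18 (SE; interval -0.55 to 0.27). The liver name tch-miR-122-5p had 76072, 0 and 0 counts in exposed larvae, against 79038, 90871 and 78041 in control larvae, and no partner name. It was not called over all names, and was called lower only without exposed library 1 (adjusted p = 0.00392, edgeR). It then passed the filter only through the control libraries, so this p is given as a description.

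To place 1.25% among the slick concentrations, the 100 names counted in all 12 slick libraries were fitted together. No name was called between 1.25% and 5.00% (8 with an unadjusted p under 0.05, edgeR; DESeq2 called 1) or between 1.25% and 2.50% (11 with an unadjusted p under 0.05, edgeR; DESeq2 called 2). The groups did not overlap for 23 names, or 23%, between 1.25% and 5.00%, and for 8 names, or 8%, between 1.25% and 2.50%. The comparisons with the control below share the control libraries.

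The smallest p between 1.25% and 5.00% belonged to the erythroid ssa-miR-144-3p. In this fit it had 398, 421 and 373 CPM in the controls, 395, 305 and 277 CPM at 1.25%, 197, 288 and 128 CPM at 2.50% and 132, 165 and 114 CPM at 5.00%. Library 1 at 1.25% was among the controls, and every 5.00% library was below every 1.25% library. It was 1.25 ± 0.29 log2 units higher at 1.25% than at 5.00% (SE, n = 3 each; interval 0.64 to 1.86; adjusted p = 0.0659, edgeR). Against the controls its log2 fold changes were -0.29 at 1.25%, -0.96 at 2.50% and -1.54 at 5.00%, of which the last was called (adjusted p = 0.0109, edgeR), the only call among 100 names at 5.00%, or 1%. chi-miR-451-5p did not follow it, with log2 fold changes of 0.08 at 1.25%, -0.26 at 2.50% and -0.07 at 5.00%.

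For ssa-miR-734-5p the estimate was instead farthest from 0 at 1.25%. In this fit it had 3059, 2160 and 2403 CPM in the controls, 4484, 4011 and 6218 CPM at 1.25%, 4274, 4209 and 3663 CPM at 2.50% and 2787, 3521 and 2632 CPM at 5.00%. All libraries at 1.25% and 2.50% were above all controls, and those at 5.00% overlap with the controls. Its log2 fold change over the controls was 0.95 ± 0.23 at 1.25%, 0.67 ± 0.23 at 2.50% and 0.23 ± 0.23 at 5.00% (SE), and none was called. Between 1.25% and 5.00% the difference was 0.72 ± 0.23 (SE; interval 0.22 to 1.22; adjusted p = 0.259, edgeR). By contrast ssa-miR-8159-5p had log2 fold changes of 0.42, 0.33 and 0.65 at 1.25%, 2.50% and 5.00%, and efu-miR-27b had 0.59, 0.33 and 0.64. For dre-miR-737-5p the log2 difference was -1.02 ± 0.29 between 1.25% and 2.50% (SE; adjusted p = 0.202, edgeR) and -1.02 ± 0.29 between 1.25% and 5.00% (SE; adjusted p = 0.18, edgeR). sha-miR-135a, of a neural miRNA family, had 246, 259 and 299 CPM in the controls, 274, 264 and 224 CPM at 1.25% and 268, 600 and 718 CPM at 2.50%. Libraries 2 and 3 at 2.50% were far above the others. The log2 difference between 1.25% and 2.50% was -1.06 ± 0.31 (SE; adjusted p = 0.202, edgeR). Between 1.25% and 5.00% ssa-miR-22b-5p differed by -0.92 ± 0.37 (SE; adjusted p = 0.461, edgeR). Between 1.25% and 2.50% aca-miR-199a-5p differed by -0.58 ± 0.23 and ola-miR-130c by 0.54 ± 0.22 (SE; adjusted p = 0.397 for each, edgeR).

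**Figure D4:**
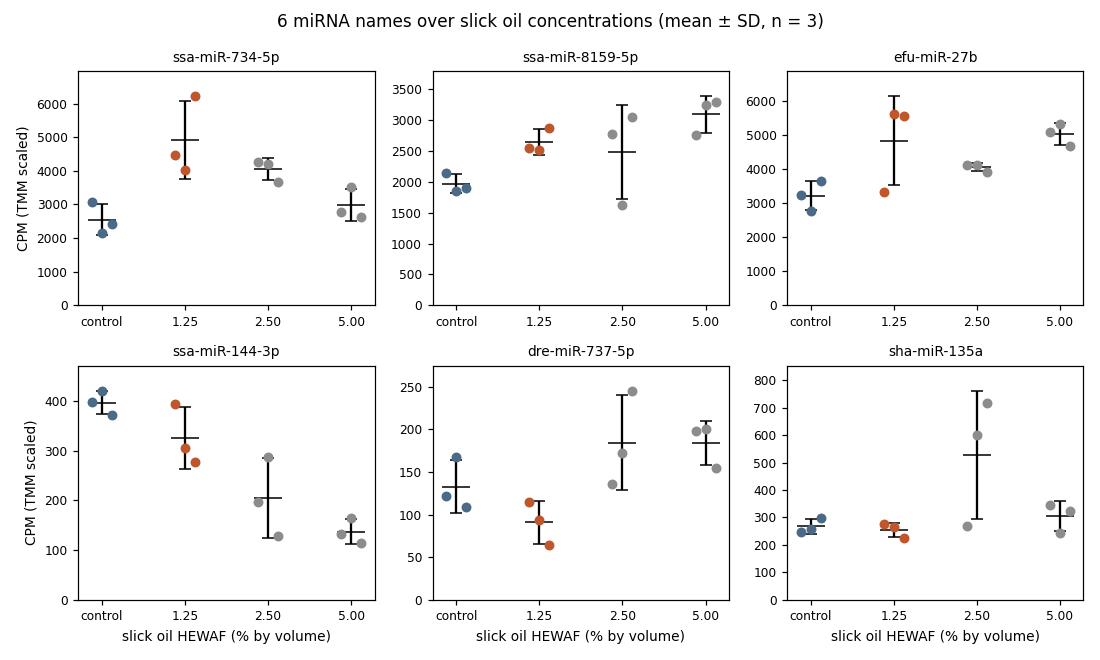
CPM (TMM scaled, linear axes from 0) of 6 names in the slick controls and at 1.25%, 2.50% and 5.00% slick oil; points are libraries and bars the mean ± SD (n = 3). At 1.25% ssa-miR-734-5p is at its highest mean (4904 CPM), while the mean of ssa-miR-144-3p is 397 CPM in the controls, 326 CPM at 1.25% and 137 CPM at 5.00%.

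The response to 1.25% slick oil was also set against that to 0.135% source oil, the lowest concentration of each experiment. These percentages differ, and they match in rank alone. Among 112 names counted in all 12 libraries, 0 differences between the oils were called, with 8 at an unadjusted p under 0.05 (edgeR) and 0 called by DESeq2. The smallest p belonged to ola-miR-184-5p, a miRNA of eye and epithelia. Its log2 fold change was 0.10 ± 0.12 with slick oil and -0.54 ± 0.12 with source oil (SE), a difference of 0.63 ± 0.18 (SE; interval 0.26 to 1.01; adjusted p = 0.322, edgeR). ola-miR-100 differed by 0.58 ± 0.21 (SE), ssa-miR-222a-5p by 0.55 ± 0.22 (SE), ola-let-7e by 0.63 ± 0.26 (SE) and sha-miR-135a by -0.64 ± 0.24 (SE), with an adjusted p of 0.624 for each (edgeR).

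ssa-miR-734-5p was positive with both oils. Its log2 fold change in this fit was 0.97 ± 0.17 (SE) with slick oil, called at an adjusted p of 0.00642 (edgeR), and 0.49 ± 0.17 (SE) with source oil, not called (adjusted p = 0.449, edgeR). This test of the slick response borrows the spread of the source libraries and was chosen after seeing the data. Over the 6 slick libraries of the comparison the adjusted p was 0.0952 (edgeR). The difference between the oils was 0.48 ± 0.24 (SE; interval -0.03 to 1; adjusted p = 0.725, edgeR), so the data do not separate them. ssa-miR-8159-5p had 0.44 ± 0.11 (SE) with slick and 0.24 ± 0.11 (SE) with source oil. efu-miR-27b had 0.61 ± 0.17 (SE) with slick and 0.44 ± 0.17 (SE) with source oil. The let-7 family had a median of 0.28 with slick and -0.03 with source oil over 5 names. In the fit of the slick concentrations, over 3 let-7 names, the median was 0.43 at 1.25%, 0.40 at 2.50% and -0.0061 at 5.00%.

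**Figure D5:**
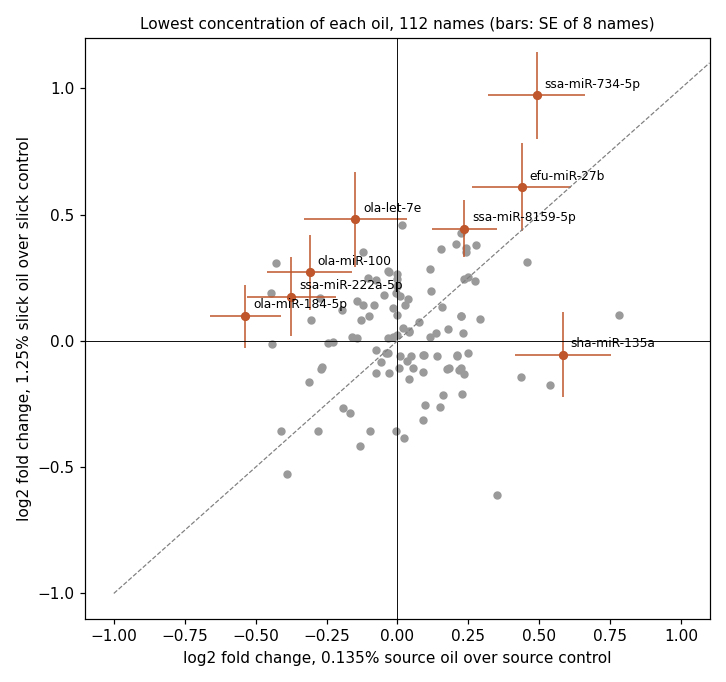
Log2 fold change of 112 names for 1.25% slick oil over the slick controls (vertical axis) against 0.135% source oil over the source controls (horizontal axis); bars are SE for 8 names, and the dashed line marks equal responses. ssa-miR-734-5p, efu-miR-27b and ssa-miR-8159-5p are positive with both oils, and ola-miR-184-5p lies at 0.10 with slick and -0.54 with source oil.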

How the data were processed

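Small RNA of pooled larvae was isolated with a miRNeasy kit, made into libraries with a NEBNext kit and sequenced, per the labels. The authors deposited whole-number read counts per mature miRBase name, per the file headers. Which aligner and miRBase release were used, and how a read matching several names was counted, is not given in the sources used here. A DESeq2 table was deposited too (the tool is in the submitters' processing notes, with no version). Per the file headers, this table holds a mean signal per group (from the values, size-factor scaled counts), a score (exposed mean minus control mean), the authors' log2 fold change, and the authors' p-value with its FDR. It was used only where named.

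Counts were tested with edgeR 4.0.16 in R 4.3.3 (TMM, glmQLFit and glmQLFTest) without covariates. A name entered with a minimum of 10 counts in 3 or more libraries, and p-values were adjusted over all names of a fit. The SE of a log2 fold change is its size over the square root of F, and intervals use the t distribution of the fit. Alternatives were DESeq2 1.42.0, other scalings and filters, the replicate number as a block, sums per miRNA number and each library left out. The scripts were tested on simulated data. In fits across slick tables, 7 names whose control 1 counts differ between tables were left out. By rule the text names those called, the 20 with the smallest p, those at 0 in 1 group only, the 10 most abundant, the smallest p of each of 21 miRNA lists and the 5 smallest p of the other fits. Names given as examples of zeros, or as relatives and further members of a list, were added after their values were seen. The members, lists and tests were chosen with earlier results of these data known. Precision is limited by 3 libraries per group, with total counts of 4440488 to 9306948 in the comparison.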

Additional observations from a re-analysis of the deposited data

How the results depend on the processing

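The 1 call over all names stayed under other scalings, a robust fit, 1 name per set of nearly equal counts and no filter. None of these settings removes the selection of fru-miR-216a through the control libraries, so they lend its call no support. Calls numbered 3 with DESeq2, 0 with the replicate block (fru-miR-216a at an adjusted p of 0.918, edgeR), 0 with all 12 slick libraries (0.997) and 0 with counts summed per miRNA number, and 0 to 3 with a library left out. With any control left out, fru-miR-216a no longer had 3 libraries with counts and was not tested. Without exposed library 1, tch-miR-122-5p was added to it, and without exposed library 3, ssa-miR-727-3p and xtr-miR-138 were. Each of these added names then passed the filter only through the control libraries, so their calls are given as a description. The partner name of xtr-miR-138, mdo-miR-138, had nearly the same counts where both were counted. This partner was counted in every library, at a log2 fold change of 0.60 ± 0.32 (SE). For the 117 names the 0 calls became 1 with DESeq2, 2 with the replicate block (aca-miR-26-5p, and ssa-miR-734-5p at 0.000675), 1 with the spread shared with the 6 source libraries (an alternative chosen after seeing the data) and 0 to 2 with a library left out (without exposed library 1, efu-miR-27b and ssa-miR-734-5p, both at 0.047). Of these names, aca-miR-26-5p had 7930 counts in control library 2, against 501772 and 767498 in control libraries 1 and 3. Without the block, and without control library 2, its log2 fold change was -0.15. Whether same-numbered libraries belong together is not given by the labels. Deviations of same-numbered libraries correlated at 0.07, -0.04 and 0.20, and those of the other pairs at -0.22 to 0.11. With 3 libraries per group these values cannot decide it. Between 1.25% and 5.00%, 0 calls became 1 with library totals alone, 1 with DESeq2 and 1 with the replicate block, each being ssa-miR-144-3p. Library totals moved the median of all names there to 0.14, against -0.06. Between 1.25% and 2.50%, 0 calls became 2 with DESeq2, and 0 to 5 with a library left out, the 5 being without library 1 at 2.50%. For the difference between the oils the count was 0 under every alternative run. The cause of these changes was not tested. The replicate block changed no other call. Against control, 5 named miRNAs of the 117 changed sign with a library left out: mdo-miR-128a-5p (0.22 without exposed library 1 and 0.16 without control library 2, with a range of -0.38 to 0.22 over the libraries left out), ola-miR-184-5p (-0.0092 without exposed library 3 and -0.0065 without control library 3; up to 0.13), ssa-miR-22b-5p (-0.17 without exposed library 3; up to 0.33), aca-miR-26-5p (-0.15 without control library 2; up to 0.90) and ssa-miR-206-5p (-0.014 without control library 3; up to 0.23). Of 20 list medians, 11 changed sign with another scaling or a library left out: muscle, neural, eye, blood, liver and gut, skeletal and connective tissue, miR-17-92, miR-99/100 and miR-125, miR-181, miR-26/30/101 and teleost. Depth limits the low names: 3 counts are 0.32 to 0.68 CPM in exposed and 0.33 to 0.36 CPM in control libraries.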

Other observations

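Of the 117 names counted in every library, 24 belong to no list, and 10 of them were positive and 14 negative, with a median log2 fold change of -0.06 and a range of -0.62 to 0.35. The groups did not overlap for 3 of them, beside 9 of all 117 names (7.69%). hsa-miR-3074-5p had 1.69, 1.2 and 1.74 CPM in exposed larvae, against 2, 2.35 and 2.55 CPM in control larvae, with a log2 fold change of -0.62 ± 0.25 (SE; interval -1.19 to -0.04; adjusted p = 0.913, edgeR). ssa-miR-7552a-5p had 2.03, 2.53 and 1.99 CPM in exposed larvae, against 2.67, 3.39 and 2.9 CPM in control larvae. ssa-miR-1788-5p had 4.23, 4.27 and 2.73 CPM in exposed larvae, against 4.84, 5.22 and 4.87 CPM in control larvae. All 3 rest on 42 or fewer counts in each library. ipu-miR-3618 had 545, 359 and 361 CPM in exposed larvae, against 425, 616 and 543 CPM in control larvae, and its libraries overlap.

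The miR-15/16 family, known for slowing the cell cycle, had no name counted in every library that passed the filter, and was looked at as sums per miRNA number after its values were seen. The 3 miR-15 names summed to 10, 18 and 9 counts in exposed larvae, against 1073, 14 and 1606 in control larvae. The 2 high control sums are almost all fru-miR-15b, with 0, 0 and 0 counts in exposed larvae, against 1062, 0 and 1589 in control larvae. The 2 miR-16 names summed to 3276, 2194 and 1022 counts in exposed larvae, against 4036, 4511 and 5693 in control larvae. The log2 fold change was -0.75 ± 0.33 (SE) with an adjusted p of 0.996 (edgeR). Of the 6 exposed values of these 2 names 2 were zeros, and of the 6 control values none was. The names aca-miR-16a-5p and oar-miR-16b had nearly the same counts where both were counted, and each zero fell where the other was counted. In CPM of all counts aca-miR-16a-5p had 217, 236 and 0 in exposed larvae, against 229, 267 and 312 in control larvae. For oar-miR-16b these were 228, 0 and 230, against 218, 275 and 320.5. On this scale the groups overlap for both names, unlike on the TMM scale above. The sum thus holds 1 name in exposed libraries 2 and 3 and both names elsewhere. Its fold change therefore does not compare like with like.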
